A study of Mus musculus with 16 samples.

Results

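Potassium channel genes were taken as those of all array probes whose annotated gene symbol begins with Kcn followed by family letters and a number, and these were 79 genes with 117 of the 25697 probes of the array, where 16593 genes are named. By the symbol they fell into 42 probes of 32 voltage-gated channel genes, 19 probes of 12 inward rectifier genes, 22 probes of 13 two-pore channel genes, 8 probes of 7 calcium-activated channel genes and 26 probes of 15 genes of auxiliary subunits. Classes follow symbol families alone, so the calcium-activated class also holds Kcnt1 and Kcnu1, whose opening by calcium is not implied. Left atria (LA) and right atria (RA) from MF1 mice and from Swiss Agouti mice were each measured on 4 Illumina MouseRef-8 arrays, 16 arrays in all, with total RNA of 1 atrium on each array. No group carried a treatment or an engineered allele. The labels give both strains as 12 months old, and so does the study's description of the array experiments. A single sentence of its methods instead gives the Swiss Agouti animals as 12 weeks old. By the study's own listing the MF1 mice were male and the Swiss Agouti mice female, so that strain and sex cannot be told apart. Both strains are outbred, and whole atria hold myocytes together with vessel, nerve, connective tissue and epicardial cells.

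Potassium channels let potassium leave the myocyte and thereby end the action potential and set the resting potential. Voltage-gated channels carry the transient outward and the delayed rectifier currents, inward rectifiers hold the resting potential and include the atrial channel opened by acetylcholine, two-pore channels carry background current, and calcium-activated channels of the SK family add repolarising current in atria. Auxiliary subunits bind these channels and change their gating and their number at the membrane.

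The deposited values are log2 signals set relative to the median of each probe, so they give differences between arrays but neither a level of a gene nor whether its probe stood above background, and a dim probe may show too small a difference. The sides were compared in each strain with limma over all 25697 probes, and a probe passed at an adjusted p (Benjamini-Hochberg) under 0.05 together with a fold above 1.5. Differences are LA minus RA, so that a positive one means a higher signal in LA, and folds are given as the side with more signal divided by the other. Whole tissue was measured, so fewer cells of a type and less RNA per cell cannot be told apart. The MF1 LA replicate 2 array stood apart, with a standard deviation (SD) of 0.226 around its group mean over all probes, against 0.0951 to 0.154 for the other 15 arrays, and over the potassium channel probes this was 0.152 against 0.0746 to 0.0991. The side labels were checked with Bmp10, a growth factor gene of right atrial myocytes, which was 4.23-fold higher in RA in MF1 mice (adjusted p = 0.000496) and 12.55-fold higher in RA in Swiss Agouti mice (adjusted p = 0.000601), with no overlap of LA and RA arrays in either strain.

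No potassium channel probe passed in either strain. Among all probes, 0.79% passed in MF1 mice and 0.63% in Swiss Agouti mice. No potassium channel probe reached a fold of 1.5, whereas 1.7% of all probes did in MF1 mice and 0.821% in Swiss Agouti mice. The widest difference belonged to Kcnh2 in MF1 mice, 1.44-fold higher in RA, and to Kcnc4 in Swiss Agouti mice, 1.26-fold higher in RA, where Kcnd2 was 1.26-fold higher in LA. The 95% interval of the difference stayed within 1.5-fold in both directions for 114 of the 117 probes in MF1 mice (91.6% of all probes) and for 115 in Swiss Agouti mice (96.6% of all probes). It stayed within 1.25-fold for 96 probes in MF1 mice (73.5% of all probes) and for 104 in Swiss Agouti mice (83.1%).

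By the adjusted p alone, without the fold, 1 potassium channel probe was called in each strain. In MF1 mice this was a probe of Kcnab1, higher in LA, where 1.35% of all probes were called. In Swiss Agouti mice it was a probe of Kcnj14, higher in RA, where 2.02% of all probes were called. An unadjusted p under 0.05 was reached by 15 probes in MF1 mice, a share of 12.8% against 10.9% of all probes. Of these, 8 were higher in LA (5.27% of all probes), and the other 7 in RA (5.67% of all probes). The number was the same in Swiss Agouti mice, where 12.6% of all probes reached it, with 5 potassium channel probes higher in LA (6.16% of all probes) and 10 in RA (6.47% of all probes). The 4 LA and 4 RA arrays did not overlap for 10 probes in MF1 mice (6.99% of all probes) and for 9 in Swiss Agouti mice (7.17% of all probes). Among them, 4 were higher in LA (3.22% of all probes) and 6 in RA (3.77% of all probes) in MF1 mice, and 1 was higher in LA (3.46% of all probes) and 8 in RA (3.71% of all probes) in Swiss Agouti mice. The shares among potassium channel probes were near those of the whole array, apart from the last pair, where more were higher in RA and fewer in LA, a difference that was not tested.

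Every channel class had a median between -0.017 and 0.057 in both strains. The farthest from 0 was the calcium-activated class in MF1 mice, near the upper quartile of all probes there (0.057). The median difference of voltage-gated channel probes was -0.013 in MF1 mice and 0.0030 in Swiss Agouti mice, and that of inward rectifier probes was -0.0027 in MF1 mice and 0.0010 in Swiss Agouti mice. Two-pore channel probes had medians of -0.015 in MF1 mice and -0.017 in Swiss Agouti mice. Calcium-activated channel probes had medians of 0.057 in MF1 mice, with 5 of 8 probes above 0, and 0.019 in Swiss Agouti mice, with 6 of 8. Auxiliary subunit probes had medians of 0.00084 in MF1 mice and -0.0040 in Swiss Agouti mice. The median over all 25697 probes was -0.000068 in MF1 mice and 0.0011 in Swiss Agouti mice. The median size of a difference, its sign left aside, was 0.061 for potassium channel probes and 0.057 for all probes in MF1 mice, and 0.047 for potassium channel probes and 0.053 for all probes in Swiss Agouti mice.

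**Figure D1:**
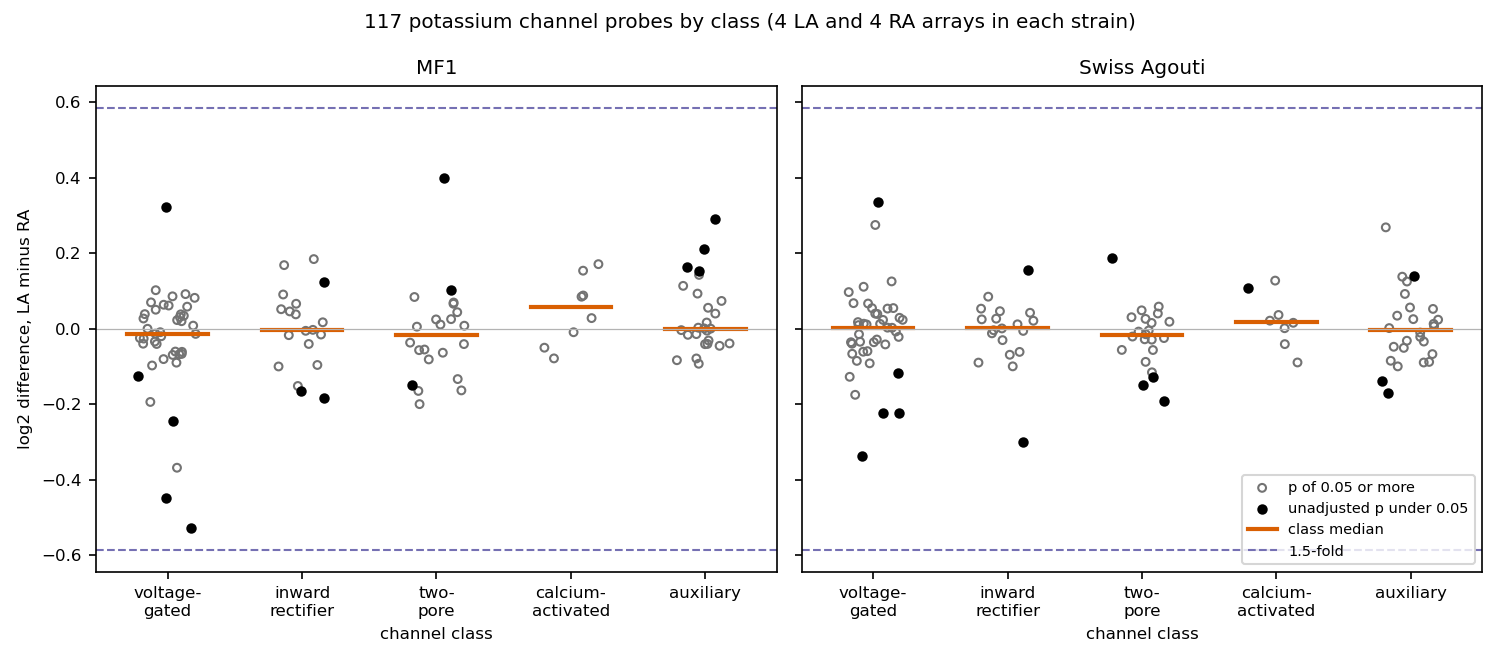
Log2 difference, LA minus RA, of each of the 117 potassium channel probes (points) by channel class, with 4 LA and 4 RA arrays in each strain; filled points have an unadjusted p under 0.05, orange lines are class medians and dashed lines mark 1.5-fold. All points lie inside the dashed lines, and the class medians lie between -0.017 and 0.057.

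Both strains gave the same direction for 68 of the 117 probes (58.1%), against 55.6% of all probes. Across the 117 probes, the difference in MF1 mice and that in Swiss Agouti mice had a Pearson r of 0.428 and a Spearman rho of 0.364, and over all 25697 probes these were 0.577 and 0.237; probes share arrays and are not independent replicates. An unadjusted p under 0.05 with the same direction in both strains was reached by 4 probes (3.31% of all probes), those of Kcnh2, Kcnc4 and Kcnk5, higher in RA, and that of Kcnk2, higher in LA. One probe, that of Kcnj14, reached it with opposite directions, a pattern that 0.218% of all probes had. No potassium channel probe passed for the difference between strains (0.00778% of all probes did, at an adjusted p under 0.05), and 6 had an unadjusted p under 0.05 there, against 7.37% of all probes.

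**Figure D2:**
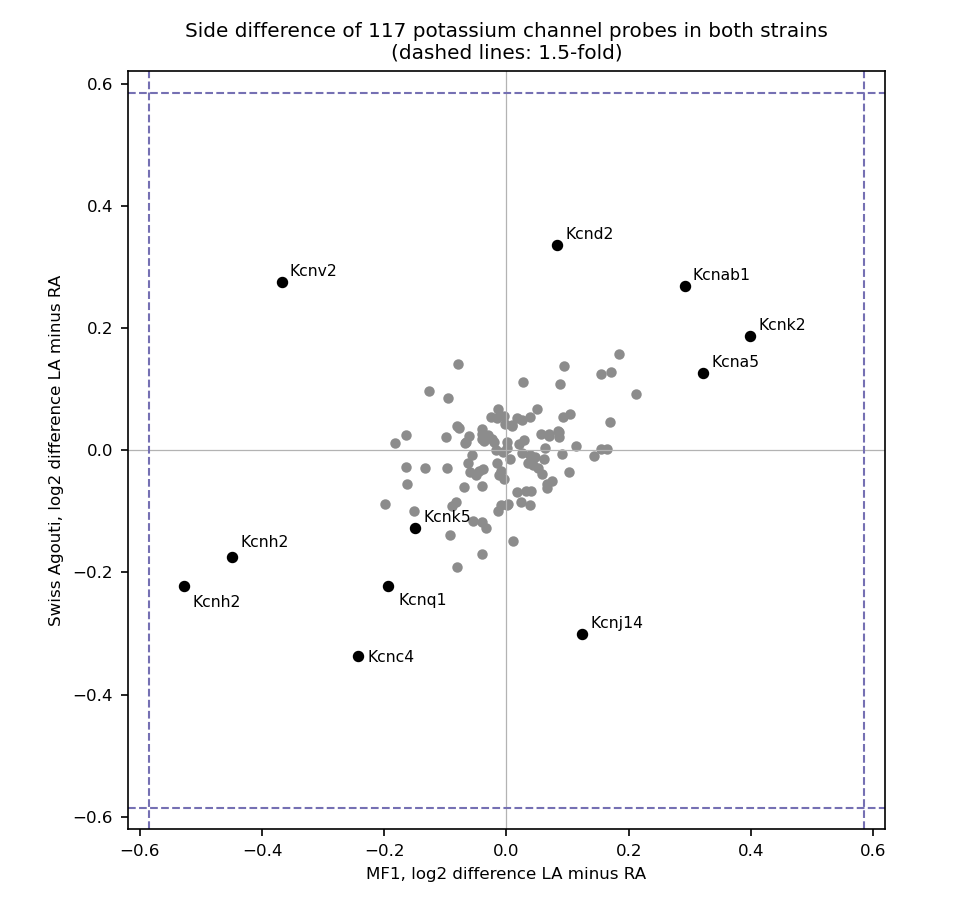
Log2 difference, LA minus RA, of the 117 potassium channel probes in MF1 mice (horizontal axis) and in Swiss Agouti mice (vertical axis); dashed lines mark 1.5-fold, and named black points lie farthest from 0 or reached an unadjusted p under 0.05 in both strains. Kcnh2, Kcnc4, Kcnq1 and Kcnk5 lie on the RA side in both strains, Kcnk2, Kcnab1, Kcna5 and Kcnd2 on the LA side, and Kcnj14 and Kcnv2 in opposite quadrants.

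The promoters of Kcnc4, Kcnh2 and Kcnk5 are shown because a probe of each was higher in RA at an unadjusted p under 0.05 in both strains. The lines give the 250 bases before the annotated start site from RefSeq (build GRCm38.p6), 5′ to 3′ on the gene's strand, with capitals marking GGGCGG, the core of the GC box bound by Sp1, or its reverse complement CCGCCC.
Kcnc4, chr3:107458899-107459148, minus strand: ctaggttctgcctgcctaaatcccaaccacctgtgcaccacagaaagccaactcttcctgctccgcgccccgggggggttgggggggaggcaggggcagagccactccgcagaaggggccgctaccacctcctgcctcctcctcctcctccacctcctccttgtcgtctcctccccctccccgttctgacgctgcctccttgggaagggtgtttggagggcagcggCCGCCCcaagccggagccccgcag
Kcnh2, chr5:24329592-24329841, minus strand: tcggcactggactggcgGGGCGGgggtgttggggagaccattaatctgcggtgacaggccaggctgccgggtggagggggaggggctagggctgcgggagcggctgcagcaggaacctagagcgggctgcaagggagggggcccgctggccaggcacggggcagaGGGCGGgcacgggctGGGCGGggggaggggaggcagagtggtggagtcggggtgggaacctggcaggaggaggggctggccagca
Kcnk5, chr14:20181783-20182032, minus strand: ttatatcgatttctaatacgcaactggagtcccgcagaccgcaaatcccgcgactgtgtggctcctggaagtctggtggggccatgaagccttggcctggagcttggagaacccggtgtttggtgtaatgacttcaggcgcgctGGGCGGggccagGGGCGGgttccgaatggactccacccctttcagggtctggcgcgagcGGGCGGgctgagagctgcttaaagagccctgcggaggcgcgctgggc

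Short motifs were searched on both strands of such windows, which were found for 61 of the 79 genes (83 windows). GGGCGG was present in 47.0% of the potassium channel windows and in 32.7% of 32851 windows of all genes. The TATA box motif TATAAA was present in 2.41% of the potassium channel windows and 12.4% of all windows, and the motif AGATAA, bound by Gata factors, in 3.61% of the potassium channel windows and 9.99% of all windows. The motif TAATCC, bound by bicoid-type factors, was present in 1.2% of the potassium channel windows (1 window) and 6.25% of all windows. None of the 3 windows shown held a motif other than GGGCGG. Kcnk2, with a probe higher in LA by the same rule, is not shown. Its window 3 held GGGCGG, and its windows 1, 2 and 4 held none of the motifs. Such a match describes letters, not a bound site.

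Among voltage-gated channels, Kcnh2 encodes the pore of the rapid delayed rectifier current, known in human tissue as hERG. Its probe ILMN_1244402 read -0.45, -0.52, -0.026 and -0.085 in LA of MF1 mice, against 0.021, 0.32, 0.34 and 0.35 in RA. The arrays of the sides did not overlap, but replicates 3 and 4 of LA and replicate 1 of RA lay close to each other. The difference was -0.53 ± 0.13 (SE), with an unadjusted p of 0.0027 and an adjusted p of 0.104, and with the replicate number as a block the adjusted p was 0.0318 while the fold stayed at 1.44. Without LA replicate 2 the difference was -0.44. The same probe read -0.019, -0.22, 0.019 and 0.15 in LA of Swiss Agouti mice, against 0.13, 0.35, 0.15 and 0.19 in RA. These arrays overlapped, and the difference was -0.22 ± 0.081 (SE) with an adjusted p of 0.266.

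A second Kcnh2 probe, ILMN_3123864, read -0.34, -0.44, -0.18 and -0.14 in LA of MF1 mice, against -0.0034, 0.33, 0.062 and 0.32 in RA. Its sides did not overlap either, and the difference was -0.45 ± 0.099 (SE, adjusted p = 0.0758). The difference of this probe was -0.17 ± 0.12 (SE, adjusted p = 0.628) in Swiss Agouti mice. The third Kcnh2 probe, ILMN_3048027, differed by only -0.069 in MF1 mice and -0.061 in Swiss Agouti mice, again lower in LA, and its MF1 arrays did not overlap. The 3 probes are annotated to 1 transcript, and the difference between strains did not pass for any of them (adjusted p = 0.727 for ILMN_1244402 and 0.762 for ILMN_3123864).

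Kcnc4 encodes Kv3.4, a fast-activating channel of the Shaw family. Its probe ILMN_2771095 read -0.14, -0.13, -0.042 and -0.084 in LA of MF1 mice, against 0.17, 0.23, 0.094 and 0.082 in RA. The values were -0.16, -0.25, -0.0521 and -0.29 in LA of Swiss Agouti mice, against -0.0516, 0.22, 0.18 and 0.25 in RA. It was the only potassium channel probe without overlap and with the same direction in both strains (1.36% of all probes), although in Swiss Agouti mice LA replicate 3 and RA replicate 1 all but touched. The difference was -0.24 ± 0.050 (SE) in MF1 mice, 1.18-fold higher in RA with an adjusted p of 0.0615. The Swiss Agouti difference was -0.34 ± 0.077 (SE), 1.26-fold higher in RA with an adjusted p of 0.0605, and without RA replicate 1 it was -0.40 with an adjusted p of 0.0213. The same RA replicate 1 also stood apart for the ventricular marker Myl2, which read -0.40, -0.75, -0.46 and -0.83 in LA of Swiss Agouti mice, against 0.45, 4.38, 4.10 and 5.62 in RA (difference -4.25 ± 0.86 on the log2 scale, SE, adjusted p = 0.0352). Among the 7 ventricular marker probes, 3 had a difference above 0 in Swiss Agouti mice, and none passed in MF1 mice. A link of Myl2 to the Kcnc4 values was not tested. The other Kcnc4 probe, ILMN_1242025, differed by -0.080 in MF1 mice and 0.039 in Swiss Agouti mice, with overlapping arrays in both.

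Kcna5 encodes Kv1.5, the pore of the ultrarapid delayed rectifier current of atrial myocytes. It read 0.31, 0.092, 0.22 and 0.42 in LA of MF1 mice, against 0.14, -0.19, -0.016 and -0.17 in RA. LA replicate 2 lay below RA replicate 1, and all other LA arrays lay above all RA arrays. The difference was 0.32 ± 0.093 (SE, unadjusted p = 0.0075, adjusted p = 0.182), or 1.25-fold higher in LA. The Swiss Agouti difference was 0.13 ± 0.073 (SE, adjusted p = 0.558), and the difference between the strains was 0.20 with an adjusted p of 0.772.

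Kcnq1 encodes the pore of the slow delayed rectifier current. Its probe ILMN_2777879 read -0.26, -0.26, 0.11 and -0.24 in LA of MF1 mice, against 0.023, 0.14, -0.091 and 0.061 in RA. LA replicate 3 was high and made the sides overlap, and the difference was -0.19 ± 0.093 (SE, adjusted p = 0.517). The values were -0.020, 0.0046, -0.15 and 0.045 in LA of Swiss Agouti mice, against 0.11, 0.34, 0.064 and 0.25 in RA, without overlap. There the difference was -0.22 ± 0.071 (SE, unadjusted p = 0.0102, adjusted p = 0.192). The other Kcnq1 probe differed by 0.0085 in MF1 mice and 0.040 in Swiss Agouti mice.

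Kcnd2 and Kcnd3 encode Kv4.2 and Kv4.3, the pores of the fast transient outward current. Kcnd2 read 0.46, -0.13, 0.10 and 0.19 in LA of Swiss Agouti mice, against 0.018, -0.18, -0.18 and -0.38 in RA. LA replicate 2 lay among the RA arrays, and the difference was 0.34 ± 0.12 (SE, unadjusted p = 0.0187, adjusted p = 0.256). In MF1 mice Kcnd2 differed by 0.082, and Kcnd3 differed by -0.034 in MF1 mice and -0.13 in Swiss Agouti mice. Kcna4, which encodes the pore of the slow transient outward current, differed by 0.064 in MF1 mice and 0.0031 in Swiss Agouti mice. The 2 probes of Kcnc1, which encodes Kv3.1, lay between -0.020 and 0.062 in both strains.

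Kcnv2, a modifier subunit chosen for mention after its values were seen, had differences of -0.37 ± 0.25 (SE, adjusted p = 0.701) in MF1 mice and 0.28 ± 0.14 (SE, adjusted p = 0.483) in Swiss Agouti mice, with overlapping arrays in both.

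**Figure D3:**
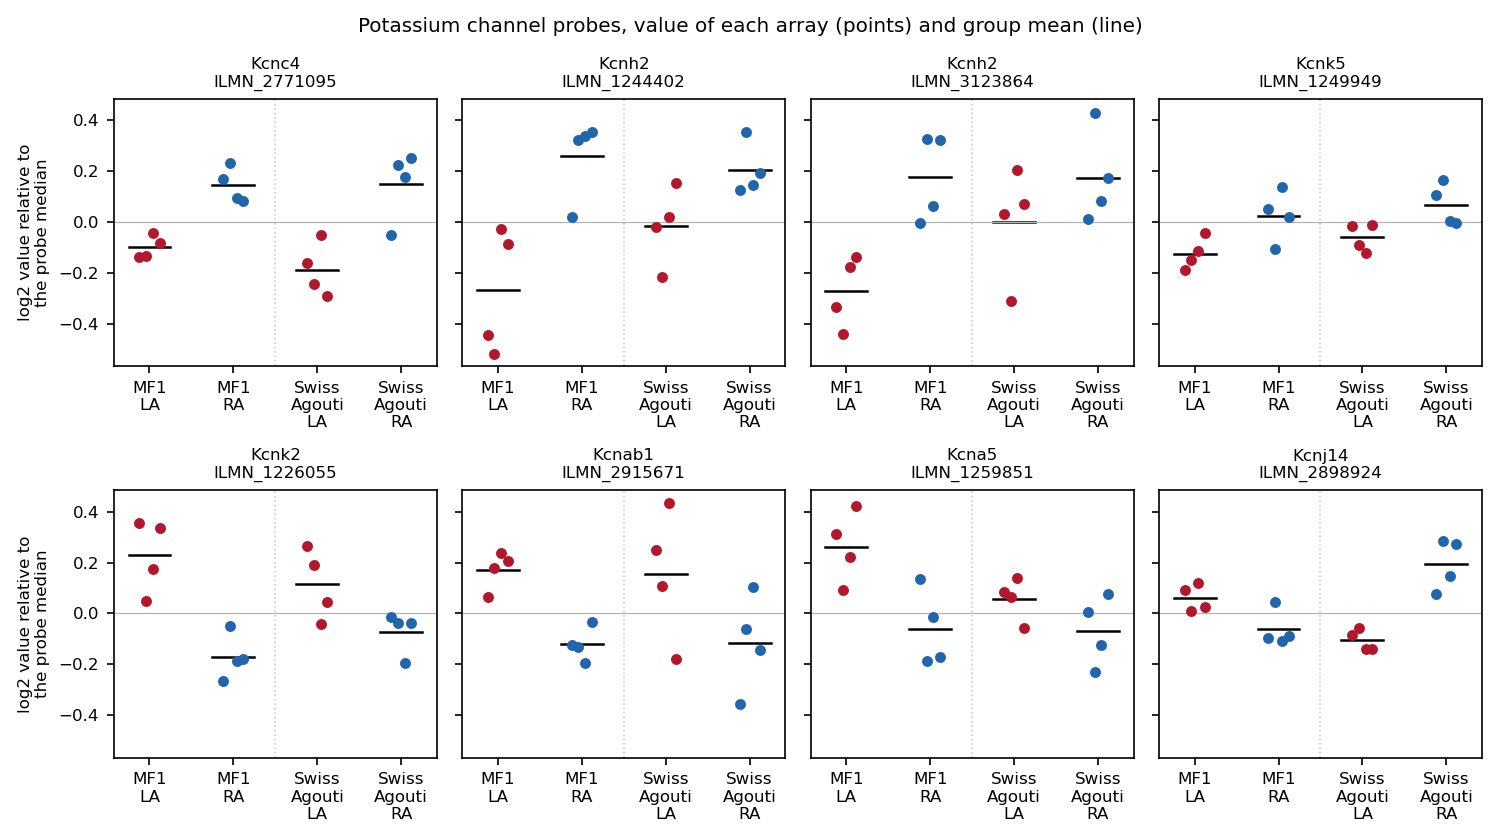
Log2 value relative to the probe median of each array (points; LA red, RA blue) and the group mean (line) for 8 probes of Kcnc4, Kcnh2, Kcnk5, Kcnk2, Kcnab1, Kcna5 and Kcnj14, with 4 arrays in each group. LA points lie below RA points for Kcnc4 in both strains, and the Kcnj14 probe has the higher mean in LA in MF1 mice and in RA in Swiss Agouti mice.

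Among inward rectifiers, Kcnj3 and Kcnj5 encode GIRK1 and GIRK4, which together form the channel opened by acetylcholine in atrial myocytes. Kcnj3 read -0.12, 0.23, 0.20 and 0.32 in LA of MF1 mice, against -0.0061, -0.051, 0.0077 and -0.055 in RA. LA replicate 1 was below all RA arrays and the other LA arrays above them, and the difference was 0.18 ± 0.090 (SE, adjusted p = 0.525). Its values were 0.0086, 0.29, -0.0086 and 0.048 in LA of Swiss Agouti mice, against -0.10, -0.11, -0.052 and -0.026 in RA, without overlap. The difference there was 0.16 ± 0.067 (SE, unadjusted p = 0.0419, adjusted p = 0.368).

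Kcnj5 read -0.020, -0.015, 0.017 and -0.058 in LA of MF1 mice, against 0.17, 0.30, 0.093 and 0.096 in RA. The sides did not overlap, and the difference was -0.18 ± 0.056 (SE, unadjusted p = 0.010, adjusted p = 0.215). The Swiss Agouti difference was 0.012 ± 0.049 (SE, adjusted p = 0.962), and the difference between the strains was -0.19 with an unadjusted p of 0.0142 and an adjusted p of 0.538. The subunits of 1 channel thus had differences of opposite sign in MF1 mice, and neither passed.

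Kcnj14 encodes Kir2.4, a member of the strong inward rectifier family. Its probe ILMN_2898924 read -0.084, -0.057, -0.14 and -0.14 in LA of Swiss Agouti mice, against 0.077, 0.28, 0.15 and 0.27 in RA. The sides were well apart, and the difference was -0.30 ± 0.057 (SE), 1.23-fold higher in RA with an adjusted p of 0.0265. Leaving out 1 array gave an adjusted p of 0.0217 to 0.0839, above 0.05 without LA replicate 1 or 3 or without RA replicate 2, 3 or 4. In MF1 mice it read 0.094, 0.0096, 0.12 and 0.026 in LA, against -0.095, 0.044, -0.11 and -0.089 in RA. RA replicate 2 was among the LA arrays, and the difference was 0.12 ± 0.052 (SE, unadjusted p = 0.0413, adjusted p = 0.426). The difference between the strains was 0.42 ± 0.075 (SE), with an unadjusted p of 4.2e-05 and an adjusted p of 0.121. The other Kcnj14 probe, ILMN_2680891, ran the other way, with -0.096 in MF1 mice and 0.085 in Swiss Agouti mice and a difference between strains of -0.18 (adjusted p = 0.556).

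Kcnj2 and Kcnj12 encode Kir2.1 and Kir2.2, which carry the inward rectifier current that holds the resting potential. Kcnj2 differed by 0.052 in MF1 mice (95% interval -0.072 to 0.18) and by -0.030 in Swiss Agouti mice (-0.17 to 0.11). Kcnj12 differed by -0.15 in MF1 mice (-0.31 to 0.0028) and by -0.099 in Swiss Agouti mice (-0.35 to 0.15). Kcnj8, the pore subunit of the ATP-sensitive channel in vessels and also found in atria, differed by 0.17 (-0.11 to 0.45) in MF1 mice and by 0.047 (-0.16 to 0.25) in Swiss Agouti mice. Kcnj11, another pore subunit of ATP-sensitive channels, was not analysed here. The sulphonylurea receptors Abcc8 and Abcc9, which complete these channels, had 4 probes, and none passed. One Abcc9 probe, ILMN_3104271, differed by -0.42 ± 0.088 (SE, adjusted p = 0.0684) in MF1 mice, while the other Abcc9 probes differed by -0.063 and -0.061 there.

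Two-pore channels carry background potassium current. Kcnk2 encodes TREK-1, a channel opened by stretch and lipids, and its probe ILMN_1226055 had the highest positive difference of all 117 probes in MF1 mice. It read 0.36, 0.050, 0.18 and 0.34 in LA of MF1 mice, against -0.27, -0.049, -0.18 and -0.18 in RA. No array overlapped, although LA replicate 2 and RA replicate 2 were the closest of the sides. The difference was 0.40 ± 0.079 (SE), 1.32-fold higher in LA with an unadjusted p of 0.00077 and an adjusted p of 0.0536, and without LA replicate 2 it was 0.46 with an adjusted p of 0.0127. Its values were 0.26, 0.19, -0.043 and 0.047 in LA of Swiss Agouti mice, against -0.015, -0.037, -0.20 and -0.039 in RA. LA replicate 3 lay within the RA arrays, and the difference was 0.19 ± 0.073 (SE, unadjusted p = 0.0286, adjusted p = 0.314). The other Kcnk2 probe, ILMN_2651369, differed by -0.063 in MF1 mice and -0.020 in Swiss Agouti mice.

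Kcnk5 encodes TASK-2, an alkali-activated channel, and its 3 probes were all lower in LA in both strains. Probe ILMN_1249949 read -0.19, -0.15, -0.11 and -0.044 in LA of MF1 mice, against 0.051, -0.11, 0.14 and 0.021 in RA, and the difference was -0.15 ± 0.061 (SE, adjusted p = 0.408). In Swiss Agouti mice it read -0.014, -0.093, -0.12 and -0.012 in LA, against 0.11, 0.17, 0.0035 and -0.0035 in RA, with a difference of -0.13 ± 0.054 (SE, adjusted p = 0.362). The sides overlapped in MF1 mice through RA replicate 2 and did not overlap in Swiss Agouti mice. Probe ILMN_1232263 differed by -0.081 in MF1 mice and by -0.19 ± 0.064 (SE, adjusted p = 0.216) in Swiss Agouti mice, without overlap in the second. The remaining probe, ILMN_2982781, differed by -0.16 in MF1 mice and -0.028 in Swiss Agouti mice.

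Kcnk3, which encodes TASK-1, a background channel of atrial myocytes, had a wide spread among LA arrays, with an SD of 0.43 in MF1 mice and 0.37 in Swiss Agouti mice. It read -0.20, -0.63, 0.13 and 0.36 in LA of MF1 mice, against -0.13, -0.021, -0.28 and 0.066 in RA. The LA arrays spanned the RA arrays on both sides, and the 95% interval of the difference was -0.43 to 0.44 in MF1 mice and -0.30 to 0.38 in Swiss Agouti mice. Kcnk1, which encodes TWIK-1, differed by 0.026 in MF1 mice and 0.049 in Swiss Agouti mice.

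Among calcium-activated channels, no difference had an unadjusted p under 0.05 in MF1 mice, and 1 had in Swiss Agouti mice. The SK channel genes are Kcnn1, Kcnn2 and Kcnn3. Kcnn1 read 0.30, -0.25, 0.24 and 0.25 in LA of MF1 mice, against -0.11, -0.038, -0.062 and 0.061 in RA. LA replicate 2 lay below all RA arrays and the other 3 LA arrays above them, so that the difference was 0.17 (adjusted p = 0.702) with it and 0.30 (adjusted p = 0.0303) without it. In Swiss Agouti mice Kcnn1 differed by 0.13 (unadjusted p = 0.0757). The Kcnn2 probes differed by 0.088 and -0.078 in MF1 mice and by 0.11 (unadjusted p = 0.0419) and 0.037 in Swiss Agouti mice, and Kcnn3 by -0.0090 in MF1 mice and -0.089 in Swiss Agouti mice.

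Among auxiliary subunits, Kcnab1 encodes a Kv beta subunit that binds Kv1 channels and speeds their inactivation. Its probe ILMN_2915671 read 0.064, 0.18, 0.24 and 0.20 in LA of MF1 mice, against -0.12, -0.13, -0.19 and -0.035 in RA. No array overlapped, and the difference was 0.29 ± 0.055 (SE), 1.22-fold higher in LA with an adjusted p of 0.0454. With the replicate number as a block the adjusted p was 0.0632, and leaving out any 1 of the 8 arrays brought it to between 0.0523 and 0.144. The probe read 0.25, 0.11, 0.44 and -0.18 in LA of Swiss Agouti mice, against -0.35, -0.062, 0.10 and -0.14 in RA. LA replicate 4 was among the RA arrays, and the difference was 0.27 ± 0.13 (SE, adjusted p = 0.441). The other Kcnab1 probes differed by 0.093 and 0.00057 in MF1 mice and by 0.14 and -0.089 in Swiss Agouti mice.

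Kcne1, which encodes the partner of Kcnq1 in the slow delayed rectifier, had 4 probes with differences of -0.041 to 0.16 in MF1 mice and -0.17 to 0.024 in Swiss Agouti mice. Probe ILMN_2757772 had an unadjusted p of 0.0174 in MF1 mice, higher in LA, and ILMN_2759207 one of 0.0225 in Swiss Agouti mice, lower in LA, so that different probes of the gene pointed to different sides. Kcnip2, which encodes KChIP2, the partner of Kv4 channels, had 3 probes, all lower in LA in both strains, with differences of -0.092 to -0.016 in MF1 mice and -0.14 to -0.021 in Swiss Agouti mice. Kcne1l (named Kcne5 in newer lists) and Kcnmb1, the smooth muscle subunit of BK channels, were chosen for mention after their values were seen. Kcne1l differed by 0.21 in MF1 mice (unadjusted p = 0.0121, no overlap) and 0.092 in Swiss Agouti mice, and Kcnmb1 by 0.15 in MF1 mice (unadjusted p = 0.0353) and 0.13 in Swiss Agouti mice.

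Several probes measured 25 of the 79 genes. All probes of a gene lay on 1 side for 10 of these genes in MF1 mice and for 9 in Swiss Agouti mice, and for 6 in both, among them Kcnh2, Kcnk5 and Kcnip2. For Kcnc4, Kcnk2, Kcnj14 and Kcnq1, the other probe of the gene differed by values between -0.096 and 0.085 in both strains. The values of a gene with a single probe, 54 of the 79, could not be compared in this way.

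**Figure D4:**
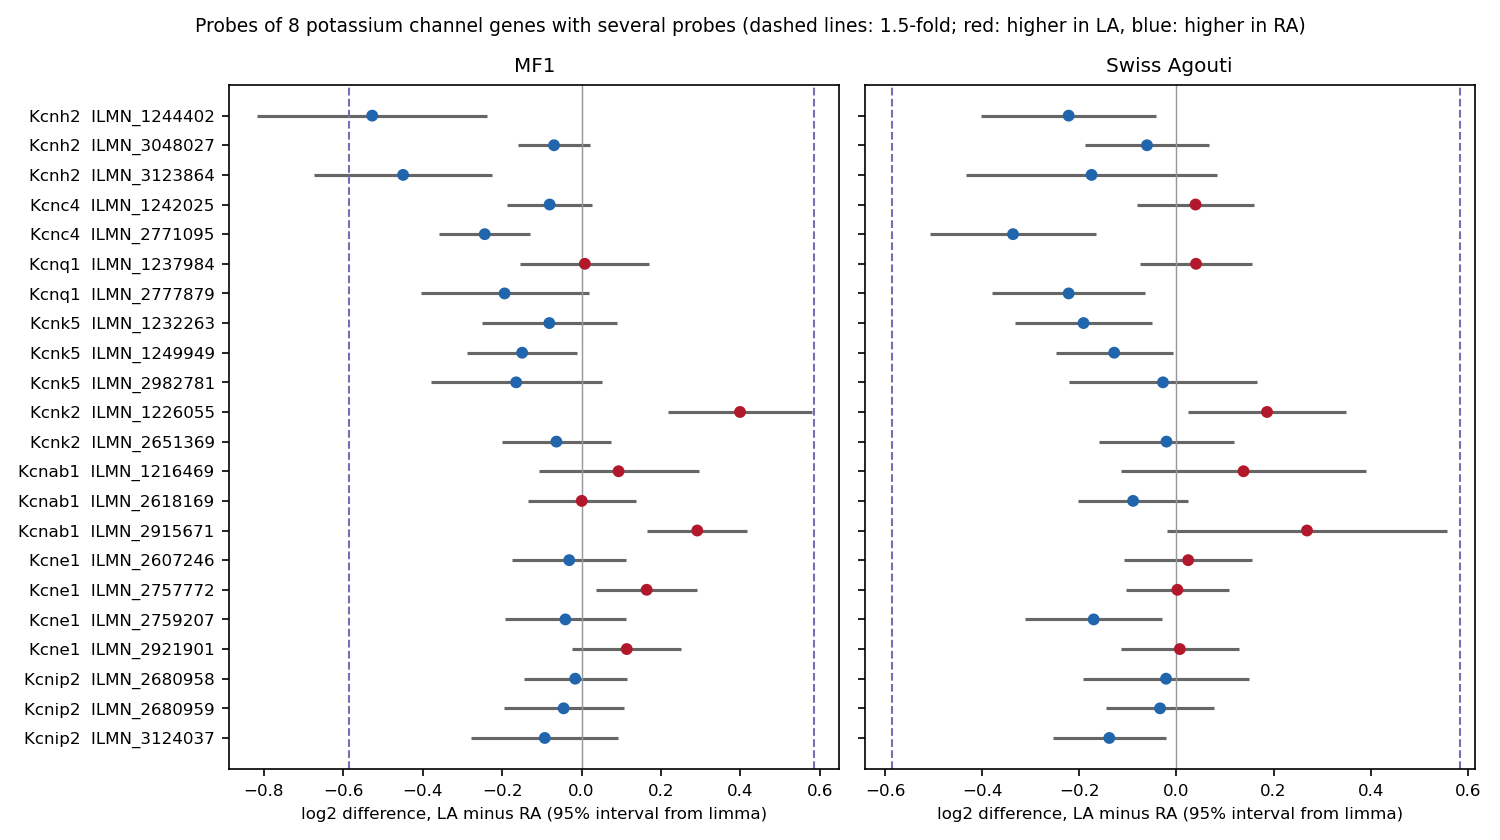
Log2 difference, LA minus RA, with its 95% interval from limma for each probe of 8 genes measured by several probes (red: higher in LA; blue: higher in RA; dashed lines: 1.5-fold). The 3 probes of Kcnh2, of Kcnk5 and of Kcnip2 lie on the RA side in both strains, while the probes of Kcnk2, Kcnq1 and Kcne1 lie on both sides of 0.

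Genes listed as partners of potassium channels were also described. Those that passed belonged to 1 list, that of muscarinic and G protein control of the GIRK channel, with 28 probes of 20 genes. Whether its members act on this channel in these atria was not tested. In MF1 mice 2 of the 28 probes of this list passed (0.79% of all probes did), both with more signal in RA. In Swiss Agouti mice 3 passed (0.63% of all probes did), 1 with more signal in LA and 2 with more in RA. The paper had already listed Gng13 as enriched in the right atrium, with these arrays among its data. Gng13, a G protein gamma subunit, read -0.59, -1.10, -0.62 and -0.47 in LA of MF1 mice, against 1.07, 0.42, 1.18 and 1.15 in RA. It read -0.76, -0.59, -0.22 and -0.72 in LA of Swiss Agouti mice, against 0.39, 0.77, 1.64 and 0.42 in RA. It was 3.14-fold higher in RA in MF1 mice (adjusted p = 0.00472) and 2.60-fold in Swiss Agouti mice (adjusted p = 0.0206), without overlap in either strain.

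Gnao1, the alpha subunit of Go, had 2 probes, of which ILMN_2773191 was 1.66-fold higher in RA in MF1 mice (difference -0.73 ± 0.13 SE, adjusted p = 0.0353), and its difference in Swiss Agouti mice was -0.51 ± 0.11 (SE, adjusted p = 0.0453), below the fold of 1.5. The other probe, ILMN_2753422, passed in neither strain, with -0.61 ± 0.14 (SE, adjusted p = 0.0902) in MF1 mice and -0.35 ± 0.084 (SE, adjusted p = 0.0756) in Swiss Agouti mice. Rgs6, which shortens G protein signals to GIRK channels, was 1.64-fold higher in RA in Swiss Agouti mice (difference -0.71 ± 0.074 SE, adjusted p = 0.000937), with a difference of -0.37 ± 0.10 (SE, adjusted p = 0.148) in MF1 mice. Rgs5, an RGS gene of pericytes and smooth muscle, was 2.14-fold higher in LA in Swiss Agouti mice (difference 1.10 ± 0.19 SE, adjusted p = 0.0152), with a difference of 0.31 ± 0.060 (SE, adjusted p = 0.0493) in MF1 mice. The muscarinic receptor gene Chrm2 had differences of 0.56 ± 0.15 (SE, adjusted p = 0.145) and 0.17 for its probes in MF1 mice and of 0.27 and 0.22 in Swiss Agouti mice, and none passed.

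No probe passed among the other partner lists, which were partners of Kv channels (17 probes of 11 genes), sulphonylurea receptors (4 probes), BK gamma subunits and SK partners (6 probes), pacemaker and non-selective cation channels (9 probes) and calcium channel subunits (13 probes). The median difference of the Kv partner probes was 0.00036 in MF1 mice and -0.0065 in Swiss Agouti mice. Calcium channel probes had medians of -0.074 in MF1 mice and 0.015 in Swiss Agouti mice. At an unadjusted p under 0.05, 3 were higher in RA (5.67% of all probes) and 1 in LA (5.27%) in MF1 mice. In Swiss Agouti mice 4 were higher in RA (6.47% of all probes) and none in LA (6.16%).

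**Figure D5:**
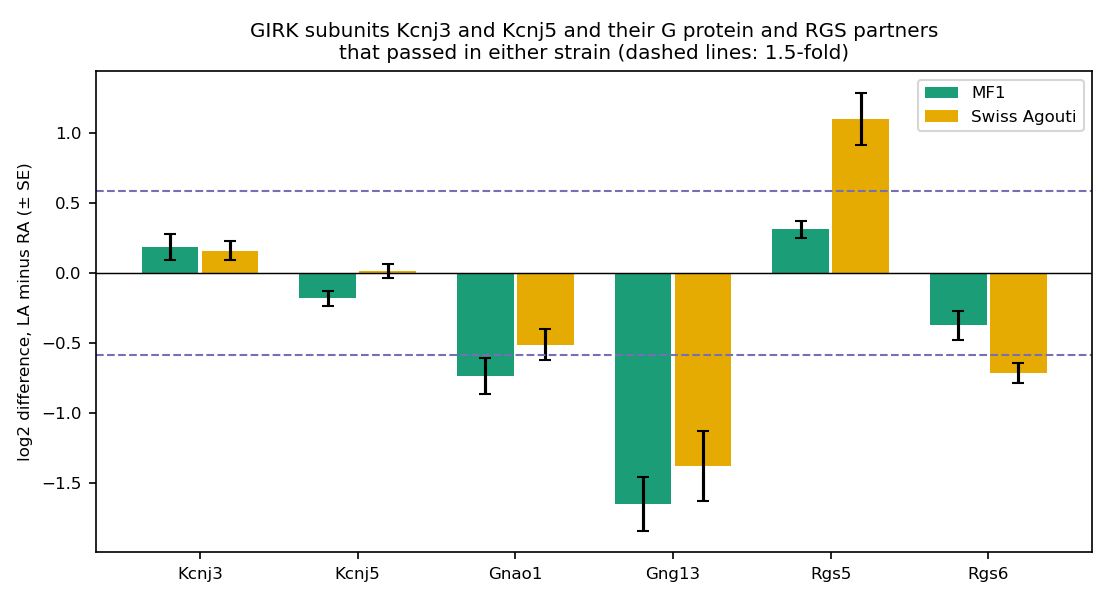
Log2 difference, LA minus RA, with its SE (bars, 4 LA and 4 RA arrays in each strain) for the GIRK subunit genes Kcnj3 and Kcnj5 and for the G protein and RGS genes of the GIRK control list that passed in either strain. Dashed lines mark 1.5-fold. The bars of Kcnj3 and Kcnj5 stay within 0.19 of 0, and those of Gng13 reach -1.65 in MF1 mice and -1.38 in Swiss Agouti mice.

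Markers of several cell types also differed between the sides. Of all probes, 5.67% in MF1 mice and 6.47% in Swiss Agouti mice were higher in RA at an unadjusted p under 0.05. The shares higher in LA were 5.27% in MF1 mice and 6.16% in Swiss Agouti mice. Of 12 endothelial marker probes, 6 were higher in RA at an unadjusted p under 0.05 in each strain, and the mean of the list was -0.23 to -0.084 in LA arrays against 0.088 to 0.19 in RA arrays of MF1 mice, and -0.19 to -0.098 in LA arrays against 0.14 to 0.31 in RA arrays of Swiss Agouti mice. Of 13 epicardial and mesothelial probes, 7 were higher in RA in MF1 mice and 3 in Swiss Agouti mice, and the mean of the list was -0.31 to -0.090 in LA arrays against 0.040 to 0.32 in RA arrays of MF1 mice, and -0.14 to 0.068 in LA arrays against -0.10 to 0.33 in RA arrays of Swiss Agouti mice. Of 13 probes of the sinus node and conduction list, 4 were higher in RA in MF1 mice and 5 in Swiss Agouti mice, with list means of -0.15 to -0.036 in LA against -0.00088 to 0.23 in RA of MF1 mice, and of -0.11 to -0.051 in LA against -0.011 to 0.15 in RA of Swiss Agouti mice. Of 17 smooth muscle and pericyte probes, 3 had more signal in LA and 1 had more in RA in each strain, again at an unadjusted p under 0.05. Of 12 macrophage probes, 9 were higher in RA in Swiss Agouti mice by the same p, 3 of which passed, with list means of -0.41 to -0.082 in LA arrays against 0.12 to 0.29 in RA arrays, and 2 were higher in RA in MF1 mice. In each strain 1 macrophage probe was higher in LA. Of 7 ventricular myocyte probes, 2 were higher in RA in each strain and 1 was higher in LA in MF1 mice, and Myl2 passed in Swiss Agouti mice. All 3 erythroid probes were higher in RA in Swiss Agouti mice. Of 9 skeletal muscle probes 2 were higher in LA in MF1 mice and 3 in Swiss Agouti mice, where 1 was higher in RA. Of 15 atrial myocyte probes, Bmp10 among them, 5 were higher in RA in MF1 mice, and 4 in Swiss Agouti mice, where 2 were higher in LA. The list means were -0.21 to -0.10 in LA against 0.025 to 0.16 in RA of MF1 mice. In Swiss Agouti mice they were -0.17 to -0.079 in LA against 0.095 to 0.29 in RA. Among 11 fibroblast probes of MF1 mice, RA had more signal for 4 and LA for 1, at an unadjusted p under 0.05. For Swiss Agouti mice these numbers were 3 and 2. One fibroblast probe passed in MF1 mice, with more signal in RA, and 1 passed on each side in Swiss Agouti mice. For autonomic neurons, Schwann cells and adipocytes, at most 2 probes differed in 1 direction in a strain. Of the autonomic neuron probes, 1 passed in each strain, with more signal in RA. The autonomic neuron means were -0.13 to 0.020 in LA against 0.030 to 0.12 in RA of MF1 mice. Their Swiss Agouti values were -0.086 to -0.014 in LA against 0.024 to 0.097 in RA. Whether any defining marker was near 0 cannot be read from centred values, and the part of these cell types in the differences of potassium channel probes was not tested.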

How the data were processed

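The authors extracted Illumina MouseRef-8 signals with Genome Studio 2009.1 and, in GeneSpring GX 11.0, quantile normalized each strain and expressed every probe as a difference from its own median. The deposited log2 values were used as given. A further table holds 16 columns of signals before normalization, and since their names are tied to no sample they were not used, so that neither background correction, detection filter nor level was computed. Genes were named from the platform annotation, which names 23978 of 25697 probes and leaves 1719 unnamed. Probes of 1 gene were kept apart.

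LA and RA were compared in each strain with lmFit and eBayes of limma 3.58.1 under R 4.3.3, and the difference between strains on all 16 arrays in 1 fit, all with Benjamini-Hochberg adjustment over 25697 probes. Unadjusted p-values are from the same fits. Standard errors and intervals rest on 4 arrays in each group, which limits the precision. The labels do not say whether LA and RA with the same number came from the same animal. The paper gives 4 mice for each of these array experiments and lists only 4 MF1 mice of this age. By that count the LA and RA arrays of MF1 mice came from the same 4 animals. The main tests leave this pairing out. Same-numbered arrays of MF1 mice deviated together (correlation across probes 0.23 to 0.499, at most 0.0203 for other numbers). A replicate block was therefore given beside results of potassium channel probes whose call it changed. It was not examined for partner and marker probes. In Swiss Agouti mice the correlation of same-numbered arrays was -0.112 to 0.138. Scripts were tested on simulated data.

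The members and lists were chosen with earlier results of these data known. Probes named were those passing in any comparison, with an unadjusted p under 0.05 and 1 direction in both strains, or under 0.01 in 1 strain, the widest difference of each class, a list of repolarising currents with Kcnc4 and Kcne1, and passing partners. Kcnv2, Kcne1l and Kcnmb1 are said to be chosen after their values were seen. Further probes of a named gene, the partners Abcc9 and Chrm2, which did not pass, and the marker Myl2 were also named outside these rules. Alternatives were the block, ordinary variances, array weights, all arrays in 1 fit, repeated scaling, averaged probes, a filter on low spread, other thresholds and leaving out each array.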

Additional observations from a re-analysis of the deposited data

Results flagged for a closer look

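Of 148 groups of 4 arrays of the named probes, 10 held 1 array far from the other 3, measured as its gap over the range of the group, and chance gives this for about 1 in 20 groups. Each value below is a log2 value relative to the probe median. In LA of MF1 mice, Kcnn1 was -0.251 in replicate 2 (0.243 to 0.299 in the others), Kcnd3 was 0.0982 in replicate 1 (-0.0773 to -0.0553), and Kcnq1 ILMN_2777879 was 0.114 in replicate 3 (-0.256 to -0.245). In RA of MF1 mice, Kcnh2 ILMN_1244402 was 0.0209 in replicate 1 (0.322 to 0.353), Kcnc4 ILMN_1242025 was 0.0901 in replicate 1 (0.0137 to 0.0243), and Kcnj14 ILMN_2898924 was 0.044 in replicate 2 (-0.107 to -0.0887). In RA of Swiss Agouti mice, Kcnk2 ILMN_1226055 was -0.196 in replicate 3 (-0.0394 to -0.0152) and Kcnc1 ILMN_2717814 was -0.121 in replicate 2 (0.00316 to 0.0258). In the same group, replicate 1 was 0.0225 for Kcnn2 ILMN_1223088 (-0.101 to -0.0897) and 0.00538 for Kcnh2 ILMN_3048027 (0.0629 to 0.0672).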

How the results depend on the processing

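The count of potassium channel probes that passed stayed at 0 in both strains and for the difference between strains under every alternative run except the adjusted p without a fold, which gave 1 in MF1 mice (Kcnab1) and 1 in Swiss Agouti mice (Kcnj14). Within a strain, several alternatives leave the difference itself unchanged. They are the block, ordinary variances, all arrays in 1 fit, the unadjusted p with the fold, and the filter on low spread. Since no potassium channel probe reached a fold of 1.5 in the main fit, their count could only be 0. With the replicate block the count was 0 in each comparison. Kcnh2 ILMN_1244402 was then the only potassium channel probe with an adjusted p under 0.05 in MF1 mice. In Swiss Agouti mice Kcnj14 ILMN_2898924 had an adjusted p of 0.0542 with the block, and whether equal numbers mark 1 animal there is not known. With all 16 arrays in 1 fit, Kcnh2 and Kcnk2 reached an adjusted p under 0.05 in MF1 mice, and Kcnc4 and Kcnj14 in Swiss Agouti mice, all below a fold of 1.5. With an ordinary variance for each probe none did. With the probes of each gene averaged, the two-pore median was 0.0083 in MF1 mice and -0.0047 in Swiss Agouti mice. Leaving out each array in turn gave medians of -0.0196 to 0.0259 for inward rectifiers and -0.0399 to 0.00068 for two-pore channels in MF1 mice, and of -0.0077 to 0.0049 for voltage-gated channels, -0.0113 to 0.0163 for inward rectifiers and -0.0197 to -0.0051 for two-pore channels in Swiss Agouti mice. The calcium-activated median, the highest of the classes, was 0.0311 to 0.0669 in MF1 mice and 0.0019 to 0.0301 in Swiss Agouti mice, and 0.0285 in MF1 mice with probes averaged. The voltage-gated median in MF1 mice (-0.0219 to 0.0078) and the auxiliary medians in MF1 mice (-0.0099 to 0.0205) and Swiss Agouti mice (-0.0160 to 0.0082) took both signs. Of 1508 values of named probes under alternatives, 70 had another sign than the value reported, and none of the probes called by adjusted p changed sign. Background correction, quantile normalization from signals, a detection filter and a slide block were not run, because the signal columns carry no name tied to a sample and no slide is named. The cause of these changes was not tested.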
